A study of Mus musculus with 86 samples.

Results

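Cited1 and 7 other genes known from the cap mesenchyme were followed across 86 single cells of the wild-type mouse kidney at 12.5 days post coitum (Theiler stage 20). The members are the rows named Cited1, Meox1, Meox2, Crym, Uncx, Spock2, Tmem100 and Fam132a, 8 of the 12360 genes in the deposited expression table. They were described across all cells and across the cells that detect Six2, divided by the presence of Cited1. Detection means an RPKM of at least 1, where RPKM is a read count divided by the length of the gene and by the mapped reads of the cell.

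The animals were of mixed background, and embryos of both sexes contributed to 1 pool of dissociated kidneys. No treatment or altered genotype was compared, and the labels give no cell type. Cells were isolated on a Fluidigm C1 instrument, and full-length cDNA was sequenced from each. Because the 86 cells share 1 pool, they are 1 sample: the groups below are defined by genes, no difference between them was tested, and no p-value is given.

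The cap mesenchyme is the layer of progenitor cells around each tip of the branching ureteric bud, and it gives rise to the epithelium of the nephron. Six2 is the transcription factor that keeps these cells undifferentiated. Within the Six2-positive layer, Cited1 marks the cells taken to be the least committed. Wnt signals from the bud induce part of the layer to switch on Pax8, Wnt4 and Lhx1 and to condense, and Cited1 is known to be lost before Six2 in that process.

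Genes detected per cell ranged from 3458 to 7100 (median 6164). Of the cells, 5 had few genes (more than 3 median absolute deviations below the median), and 7 detected at least 5 of the 11 ureteric bud markers in the table. Of these 7 bud-marker cells, 3 detected Six2 and 0 detected Cited1 (exact Clopper-Pearson 95% interval 0 to 41.0%, for counting error only). Lists of endothelium, macrophage and erythroid markers had 1 gene each in the table, with a median of 0 RPKM in every group below.

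Six2 was detected in 49 cells and Cited1 in 35, which gives 29 cells with both genes, 20 with Six2 alone, 6 with Cited1 alone and 31 with neither. Checked against other genes of the kidney, 15 listed progenitor genes besides Six2 summed to a median RPKM of 445.3 in cells with both, 309.9 with Six2 alone, 335.6 with Cited1 alone and 256.4 with neither. The 16 stroma markers summed to medians of 383.9, 253.4, 595.5 and 763.6 RPKM in the same order. Cited1 had no wide gap at the detection limit in Six2 cells. The lowest values counted as detected were 1.51, 1.77 and 1.84, and the highest below the limit were 0.770, 0.751 and 0.622. For Six2 the lowest counted values were 1.50 and 4.75, and the highest below the limit was 0.527.

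Cited1 encodes a nuclear co-activator without a DNA-binding domain of its own, which acts through the acetyltransferases CBP and p300. The gene lies on chromosome X (99442776 to 99447502, mm9, gene 12705). It was listed at 0 in 31 of 86 cells, had a median of 0.582 RPKM and reached 546 RPKM in cell 14. Its level varied widely among the cells that had it: in the 29 Six2 cells with Cited1 the lowest value was 1.51, the median 59.2 and the highest 546 RPKM. In the 6 cells with Cited1 and no Six2 the values ran from 1.18 to 123 RPKM with a median of 13.8. Of these 6 values the lowest lay just below the range of the Six2 cells, and the highest lay within it.

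By share of cells the members followed the order Crym, Meox1, Spock2, Meox2, Fam132a, Tmem100, Uncx and Cited1. Crym was in 70 of 86 cells (81.4%, interval 71.6 to 89.0%), and its interval lay above those of all other members. Meox1 was in 50 cells (58.1%, 47.0 to 68.7%) and Cited1 in 35 cells (40.7%, 30.2 to 51.8%), the ends of a run of 7 genes whose intervals overlap. By median RPKM over the cells that detect a gene, which is a level per length, Crym came first at 344 and Uncx last at 3.87. Cited1 (50.7), Meox2 (34.7), Meox1 (29.0), Tmem100 (27.6) and Fam132a (25.0) lay between, with Spock2 at 11.4. The middle 50% of values of Cited1 (11.2 to 126 RPKM) held the medians of the next 5 genes, so those neighbours do not differ beyond their spread.

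**Figure D1:**
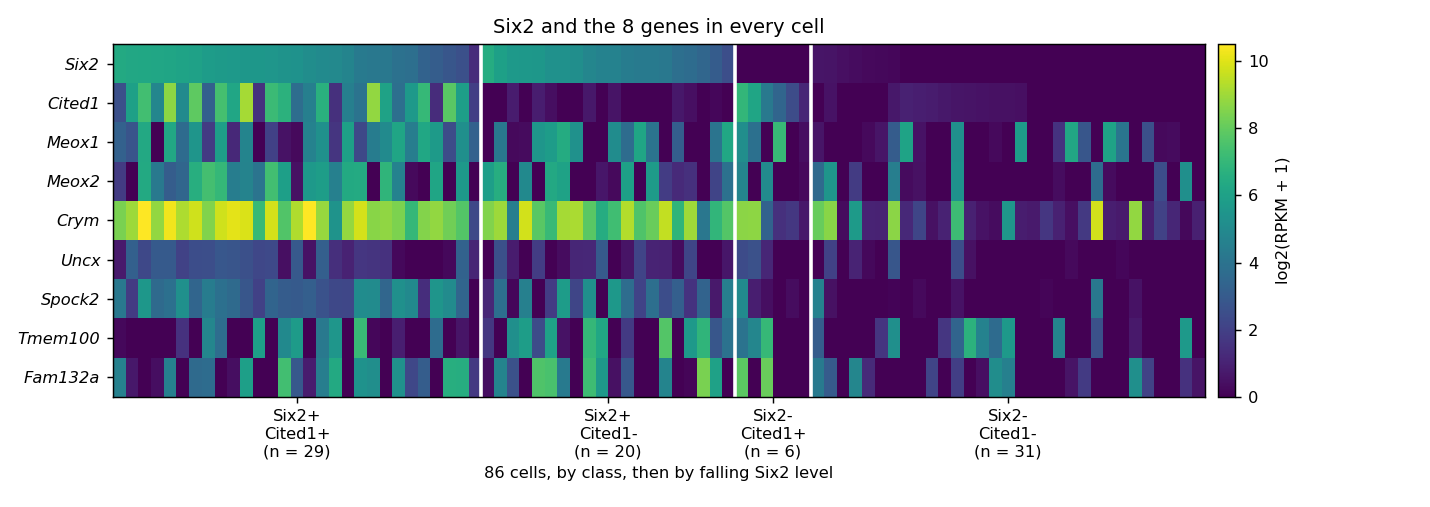
Six2 and the 8 genes (rows) in each of 86 cells (columns), as log2(RPKM + 1). Cells are grouped by detection of Six2 and Cited1 and ordered by falling Six2 level within a group. Crym is bright across nearly all Six2 cells. Spock2 is detected in 44 of these 49 cells at lower levels, while the remaining members are patchier among them.

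The sequence upstream of a start site is shown for Cited1, whose presence defines the groups, and for Meox2 and Uncx, the homeobox members with an entry. Of the 8 members, Cited1, Meox2, Uncx and Spock2 matched RefSeq's promoter table by gene number, which uses build GRCm38.p6 and not the mm9 of the expression table. Each run is the 250 bases before the most upstream listed start, 5′ to 3′ on the strand of the gene. Capitals mark every match, on either strand, to any of 4 motifs. These are TATAAA, known from the start of many regulated promoters. Another is CCAAT, which binds the factor NF-Y. GGGCGG is the box bound by SP1 and its relatives. TAATTA is a core bound by many homeodomains. No matches of different motifs overlap here.
Cited1, chrX:102252182-102252431, minus strand: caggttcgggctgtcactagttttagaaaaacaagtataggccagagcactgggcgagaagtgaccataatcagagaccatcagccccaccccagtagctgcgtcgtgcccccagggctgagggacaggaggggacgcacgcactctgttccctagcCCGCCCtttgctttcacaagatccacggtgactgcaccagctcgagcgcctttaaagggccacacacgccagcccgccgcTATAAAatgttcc
Meox2, chr12:37108290-37108539, plus strand: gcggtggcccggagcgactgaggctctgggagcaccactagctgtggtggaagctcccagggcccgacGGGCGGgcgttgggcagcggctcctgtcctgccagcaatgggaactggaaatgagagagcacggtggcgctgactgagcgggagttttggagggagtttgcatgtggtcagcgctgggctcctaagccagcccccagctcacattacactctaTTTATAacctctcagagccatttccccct
Uncx, chr5:139543648-139543897, plus strand: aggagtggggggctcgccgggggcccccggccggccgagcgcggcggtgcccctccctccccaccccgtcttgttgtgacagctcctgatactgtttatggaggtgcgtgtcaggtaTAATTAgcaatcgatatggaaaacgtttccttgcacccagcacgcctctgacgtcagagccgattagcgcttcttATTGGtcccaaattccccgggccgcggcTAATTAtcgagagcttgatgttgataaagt
Cited1 and Meox2 each had 1 TATAAA match and 1 GGGCGG match in this window. Uncx had 2 TAATTA matches and 1 CCAAT match, and Spock2 (chr10:60106007-60106256, plus strand) matched none of these motifs. Over 32851 listed promoters of the same length, 12.4% held TATAAA, 32.7% GGGCGG, 33.8% CCAAT and 4.84% TAATTA. This set leaves out 1 chromosome and counts every listed start, while the windows of the members use the most upstream start. The sequence TCAGGTTTC, the MEF3 site known to be bound by Six2 and its relatives, was in 0.387% of the promoters and in none of the 4 windows. The G and C content was 58.0% for Cited1, 62.0% for Meox2, 58.4% for Uncx and 51.2% for Spock2, against a median of 52.4%. These matches are descriptions of letters in a short window.

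The first comparison asked which members follow Cited1 within the Six2 cells. Differences are log2 ratios of (mean RPKM + 1), with 29 cells over 20, and a gene was counted as higher or lower past a log2 ratio of 1, a fold of 2. None of the 7 other members was higher by that measure, where 8.88% of all genes were, and 2, Tmem100 and Fam132a, were lower, where 8.33% of all genes were. This split chose the members, so the counts are descriptions. Of the 7, 5 had a log2 ratio above 0, where 50.8% of all genes had. The median over all 7 was 0.30 against 0.01 over all genes. The group without Cited1 held 3 bud-marker cells and the group with it 0. Summed bud-marker RPKM reached 3380 in the former and 47.0 in the latter, and without those cells 4 of the 7 were above 0.

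Among the transcription factors, Uncx and Meox2 had ratios above 0 that did not reach the fold by the main measure, and the ratio of Meox1 was near 0. Uncx encodes a paired-type homeodomain factor best known from the somites. Its RPKM with Cited1 ran from 0 to 8.87 (median 3.20) and without it from 0 to 6.96 (median 0.662). It was present in 21 of 29 and 9 of 20 cells, and the log2 ratio was 0.86. Its means, 3.38 and 1.42 RPKM, are low beside the 1 that is added. With 0.1 added instead the ratio was 1.20, past the fold. It was 1.31 without Six2 cells that detect Wnt4 or Lhx1, and between 0.81 and 0.98 in the other alternatives. The groups overlap over nearly the whole range, since both hold cells listed at 0.

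Meox2, a homeobox factor of mesoderm and vessel lining, had values from 0 to 164 RPKM with Cited1 (median 24.1) and from 0 to 92.6 without it (median 2.17). The log2 ratio was 0.96, and the shares of cells, 22 of 29 and 12 of 20, differed less than the levels. The difference of mean log2(RPKM + 1), which gives less weight to the highest cells, was 1.46, past the fold. The ratio also passed it without cells of few genes (1.15) and without the highest cell of each group (1.06). It was 1.04 with detection at an RPKM of 5 and 1.02 without Six2 cells that detect Wnt4 or Lhx1. With 0.1 added it was 0.99, without bud-marker cells 0.91 and with detection at an RPKM of 0.1 0.71.

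Meox1 is its close relative, a homeobox factor of somites and of mesenchyme. With Cited1 it ranged from 0 to 79.7 RPKM (median 20.5) and without it from 0 to 87.0 (median 13.6), so the ranges coincide. It was detected in 25 of 29 and 12 of 20 cells. The log2 ratio of the means was 0.16, and it was -0.02 without the bud-marker cells and -0.06 without Six2 cells that detect Wnt4 or Lhx1. In the other alternatives it was above 0, and the difference of mean log2(RPKM + 1) was 0.68. The ratio of means thus gives no steady direction, while the mean of log2 values was higher with Cited1.

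Crym and Spock2 were features of Six2 cells with or without Cited1. Crym encodes mu-crystallin, a reductase that also binds thyroid hormone in the cytosol. It was detected in all 29 and all 20 cells, from 3.86 to 1461 RPKM with Cited1 (median 453.8) and from 16.9 to 888.9 without it (median 224.2). Its log2 ratio was 0.80, a matter of level and not of presence. Spock2 encodes testican 2, a secreted proteoglycan. It was found in 28 of 29 cells with Cited1 (median 10.0, highest 46.7 RPKM) and in 16 of 20 without it (median 6.34, highest 55.1 RPKM). Its log2 ratio was 0.30, and it was 0.16 without the bud-marker cells and 0.08 without Six2 cells that detect Wnt4 or Lhx1.

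Tmem100 ran the other way. It encodes a small transmembrane protein known as a target of BMP signalling in endothelium. In the 29 cells with Cited1 it was listed at 0 in 15, had a median of 0 and reached 139 RPKM in cell 56, with the next cell at 59.4. In the 20 cells without Cited1 the median was 5.20 and the highest value 206 RPKM, in cell 8. Detection was 10 of 29 against 13 of 20 cells, and the log2 ratio was -1.40. It was -1.46 without the bud-marker cells and -2.21 without Six2 cells that detect Wnt4 or Lhx1, and with detection of Six2 and Cited1 set at an RPKM of 0.1 it was -0.60.

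Fam132a encodes adipolin, a secreted protein of the C1q and TNF-related family. It was detected in nearly equal shares, 17 of 29 and 11 of 20 cells. With Cited1 the median was 6.45 and the highest value 161 RPKM, and without it 5.77 and 337 RPKM. The log2 ratio was -1.06. It was -0.90 without the highest cell of each group and -0.87 without cells of few genes, and the mean of log2 values differed by -0.31. Without bud-marker cells it was -1.29, and without Six2 cells that detect Wnt4 or Lhx1 -1.26. The ratio was -1.13 with detection at an RPKM of 5 and -1.09 with 0.1 added. With detection at an RPKM of 0.1 the ratio turned to 0.16, so no direction is given for this gene.

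**Figure D2:**
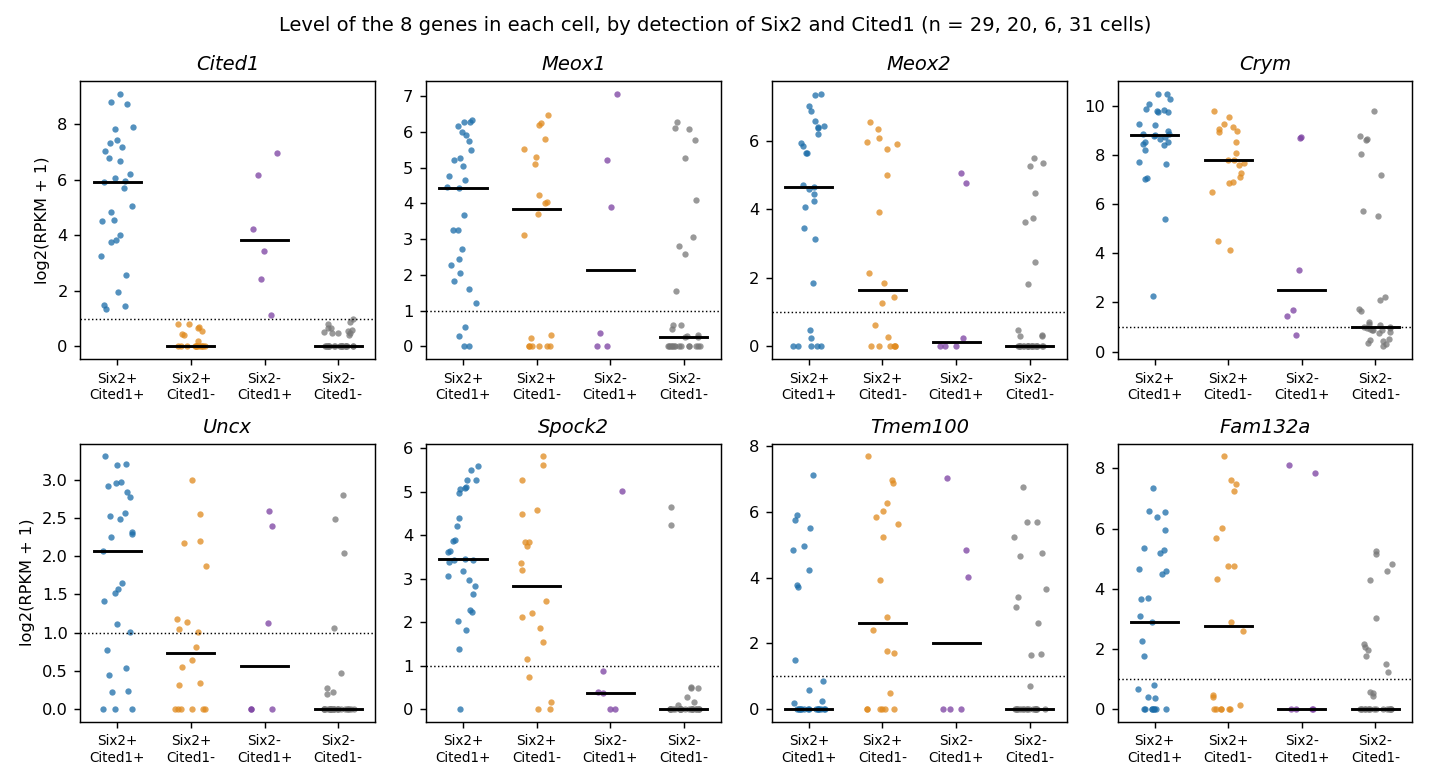
Each point is 1 cell, as log2(RPKM + 1), in 4 groups by detection of Six2 and Cited1. Black bars are medians, the dotted line is the detection limit at an RPKM of 1, and points are spread sideways for sight. Cited1 parts the groups by definition. Tmem100 has a median of 0 with both genes and lies higher with Six2 alone, and Spock2 is close to 0 in nearly all cells without Six2.

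The second comparison set the 49 Six2 cells against the 37 cells without Six2. All 8 members had a log2 ratio above 0, where 50.5% of all genes had. Past a log2 ratio of 1 were 5 of 8, namely Cited1 (3.16), Meox2 (2.38), Spock2 (2.38), Crym (2.30) and Uncx (1.07), where 6.22% of all genes were higher by this measure. Fam132a (0.96), Meox1 (0.80) and Tmem100 (0.75) were not, and none of the 8 was lower past the fold, as 7.03% of all genes were. The median over the 8 was 1.68, against 0.01 over all genes. The members were chosen as cap mesenchyme genes with earlier results of these data known. Six2 itself marks that layer, so these counts too are descriptions. All 16 stroma markers had a log2 ratio below 0 in Six2 cells, while 50.5% of all genes had a ratio above 0.

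Among the 8 members, Spock2 had the largest difference in the share of cells. It was detected in 44 of 49 cells with Six2 and in 3 of 37 without it, where its median was 0 and its highest value 31.5 RPKM. These 3 cells had at least 17.8 RPKM, so they stood apart from the other cells without Six2, in which it was below the limit.

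Crym differed in level as well as in presence. Its median was 399.9 RPKM in Six2 cells and 1.21 RPKM in cells without Six2, where the highest value was 887.8, so the ranges overlap. In no cell was it listed at 0. An RPKM of at least 100, a limit set after its values were seen, was reached in 44 of 49 Six2 cells and in 8 of 37 others. Of those 8 cells, 7 detected Eya1, a co-factor of Six2, but only 3 detected Osr1, another listed progenitor gene. Among the 44 Six2 cells, 41 detected Eya1 and 35 Osr1. Pax8 was detected in 4 of the 8 cells without Six2 and Foxd1 in 3, and 1 had bud markers. These 8 cells carried between 1 and 6 other members besides Crym and Cited1.

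Meox1 and Tmem100 were also common outside the Six2 cells. Meox1 was detected in 13 of 37 cells without Six2, up to 133 RPKM, and Tmem100 in 15 of 37, up to 132 RPKM. Fam132a was in 14 of 37 with a median of 0, though 2 cells reached 279 and 231.6 RPKM, both with Cited1. Meox2 was in 10 and Uncx in 7 of these 37 cells.

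The third comparison set the 19 cells with Wnt4 or Lhx1 against the 37 Six2 cells with neither. The group is named by these genes and not by a cell type. Cited1 (-2.11) and Meox1 (-1.04) were lower past a log2 ratio of 1, 2 of 8, where 9.54% of all genes were lower. Meox2 (-0.67), Crym (-0.65), Uncx (-0.54) and Spock2 (-0.25) had ratios between 0 and the fold, and Spock2 was at 0.04 without the bud-marker cells. Tmem100 (0.68) and Fam132a (0.33) had ratios above 0, though Fam132a was at -0.02 with detection at an RPKM of 0.1, and none of the 8 was higher past the fold, as 7.31% of all genes were. The other group held 1 of the 7 bud-marker cells, and the group with Wnt4 or Lhx1 held 5, 4 with Lhx1 and 1 with Wnt4. All 11 bud markers were higher past the fold in the latter, so it does not hold induced nephron cells alone. Without bud-marker cells Cited1 and Meox1 remained the 2 members past the fold.

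Cited1 was detected in 7 of the 19 cells with Wnt4 or Lhx1 (median 0.587, highest 123 RPKM) and in 23 of the 37 others (median 8.45, highest 546 RPKM). Of the 12 cells with Six2 and an induction gene, 6 had Cited1 and 6 did not. Spock2 was in 35 of the 37 and 10 of the 19 cells, and Meox1 in 30 of the 37 and 9 of the 19. The first group was selected for Six2 and the second was not. Of the 12 Six2 cells among the 19, Spock2 was in 9, Meox1 in 7 and Crym in 12, and of the 7 without Six2 they were in 1, 2 and 4. Bud-marker cells made up 2 of those 12 and 3 of those 7 cells. Tmem100 was in 15 of 37 Six2 cells with neither gene and in 12 of 19 cells with Wnt4 or Lhx1. Fam132a was in 19 of 37 and 13 of 19. The median of Tmem100 was 0.182 RPKM in the 37 cells and 12.3 RPKM in the 19 cells.

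**Figure D3:**
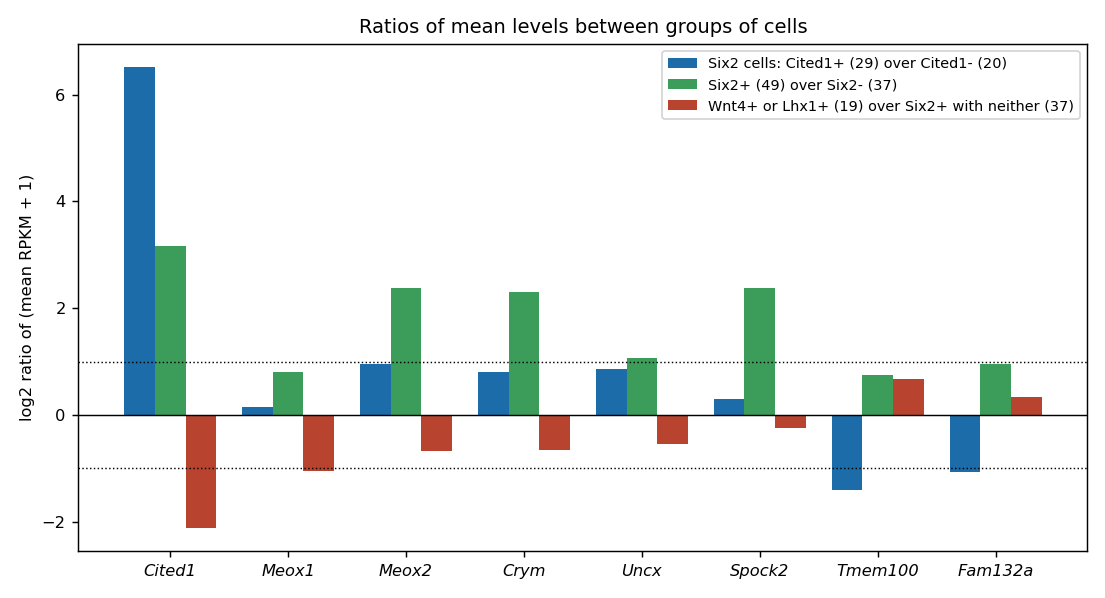
Log2 ratio of (mean RPKM + 1) for each gene in 3 comparisons of cell groups, with cell numbers in brackets and dotted lines at a fold of 2. There are no error bars, because all cells are 1 sample. Tmem100 and Fam132a have bars below 0 with Cited1 and above 0 in the other comparisons, in contrast to the members from Meox1 to Spock2. The bar of Fam132a with Cited1 is 0.16 when detection is set at an RPKM of 0.1, and that of Meox1 is -0.02 without bud-marker cells. In cells with Wnt4 or Lhx1 Fam132a is at -0.02 with that detection limit and Spock2 at 0.04 without bud-marker cells.

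Correlations between members describe the 86 cells, which share a library preparation and differ in the number of genes detected. Of 28 pairs, 25 had a Spearman rho above 0 over all cells (median 0.28). The highest was 0.76 for Crym with Spock2, followed by Crym with Uncx (0.62) and Meox2 with Crym (0.60). Within the 49 Six2 cells 16 of 28 were above 0, with a median of 0.10, and Crym with Spock2 stood at 0.32. The share of all gene pairs with a rho above 0 was not computed, so neither count is read as a trait of these genes. The Spearman correlation of a member with the number of genes detected ran from -0.02 (Cited1) to 0.32 (Uncx) over all cells, and its part in these values was not tested. Over the Six2 cells it was 0.31 for Tmem100, -0.11 for Meox1, -0.20 for Cited1 and -0.26 for Crym, so Tmem100 had the opposite sign to the genes with which its own rho was lowest.

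**Figure D4:**
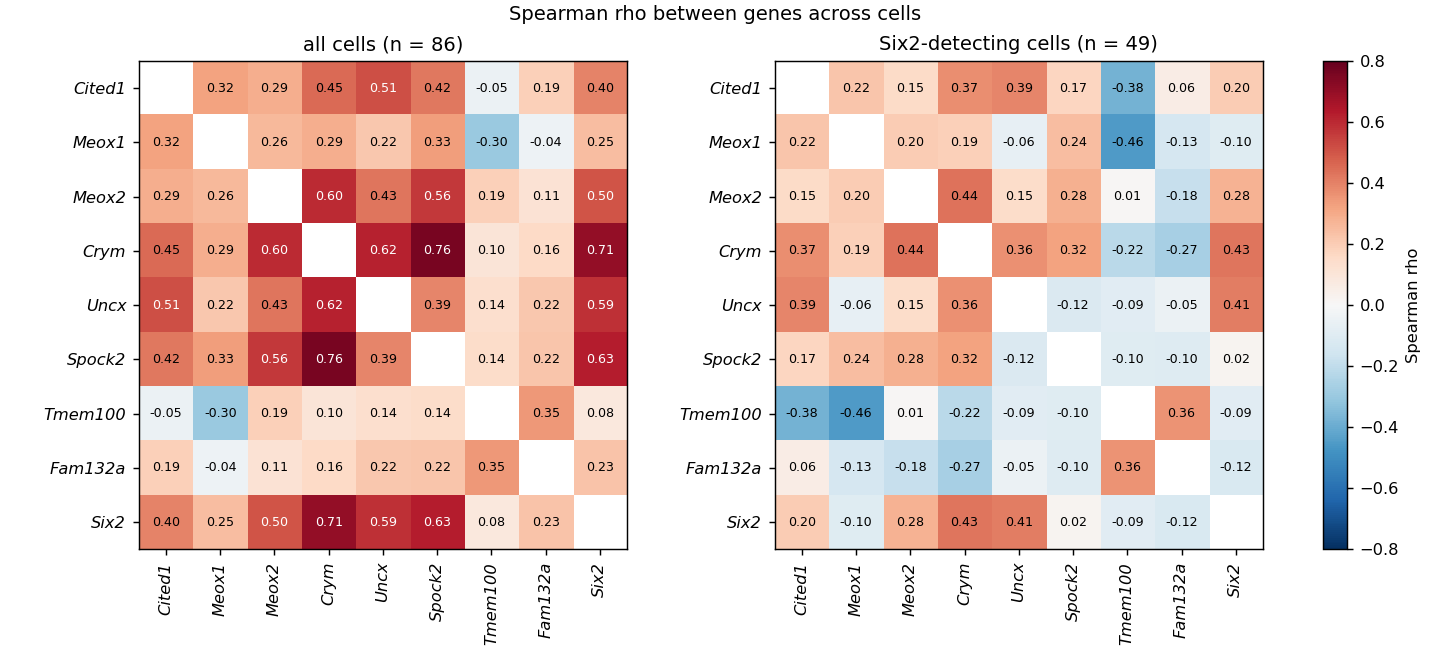
Spearman rho between each pair of genes over all 86 cells (left) and over the 49 Six2-detecting cells (right), with the value in each square. The block formed by Meox2, Crym, Uncx, Spock2 and Six2 on the left is paler on the right, and Tmem100 has its lowest values with Meox1 and Cited1 on the right.

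The lowest rho among Six2 cells was that of Meox1 with Tmem100, at -0.46, a pair picked out after its value was seen. Of 37 Six2 cells with Meox1, 12 detected Tmem100 (median 0 RPKM). Of 12 without Meox1, 11 detected it (median 55.2 RPKM). Only 1 of the 49 cells had neither gene, and 12 had both. The counts had the same direction with Cited1 (7 of 25 and 3 of 4 cells) and without it (5 of 12 and 8 of 8 cells). In the 37 cells without Six2, Tmem100 was in 5 of 13 cells with Meox1 and 10 of 24 without it. The rho was -0.50 without cells of few genes and -0.41 without bud-marker cells, and that of Cited1 with Tmem100 was -0.38.

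**Figure D5:**
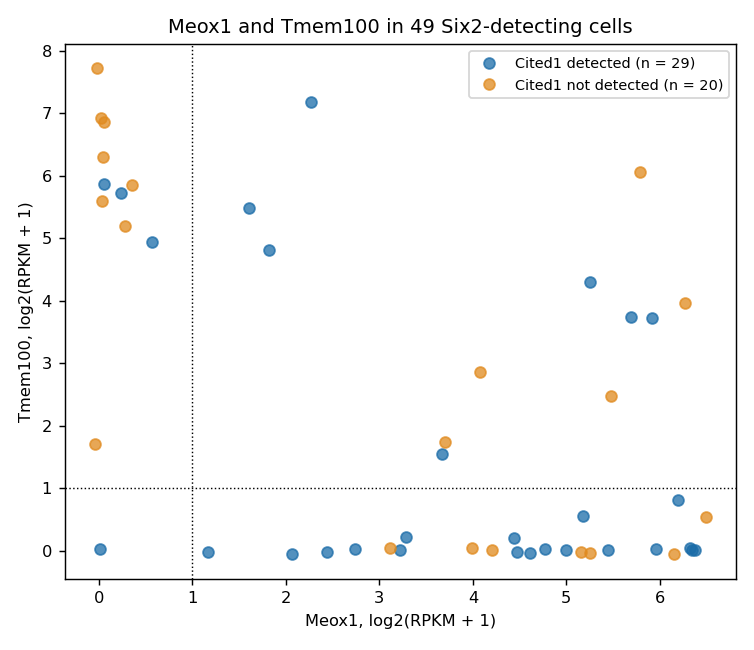
Meox1 against Tmem100, as log2(RPKM + 1), in the 49 cells that detect Six2, coloured by detection of Cited1. Points are shifted by at most 0.06 to part those at 0, and dotted lines mark an RPKM of 1. The lower left corner holds 1 cell, and 11 cells lie at upper left.

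The genes most like Cited1 were ranked by Spearman rho among 10612 other genes found in at least 10 cells. Over all 86 cells they were Uncx (0.51), Moxd1 (0.49), Fxyd6 (0.49), Eif2b2 (0.48) and Crym (0.45). Osr1, an early factor of the kidney mesoderm, was at place 6 with 0.45, Eya1 had 0.41 and Six2 0.40. Over the 49 Six2 cells the leading genes were Wdr48 (0.53), Ctsz (0.52), Gm6900 (0.50), Ado (0.50) and Nkiras2 (0.46), none of them among the former 5. Gm6900 had a mean of only 1.70 RPKM in these cells. Both lists are the largest of 10612 values, and how high the largest would be among unrelated genes was not computed. Each other member had its own nearest gene over all cells. It was Tpm2 for Meox1 (0.44), Crym for Meox2 (0.60) and for Spock2 (0.76), Spock2 for Crym, Fxyd6 for Uncx (0.62), Kremen1 for Tmem100 (0.50) and 1110038B12Rik for Fam132a (0.48).

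Other progenitor genes were mixed in their relation to Cited1. Of 16 listed genes in the table, 2 were higher past the fold in Six2 cells with Cited1, Gdnf and Hoxa11, and 1 was lower, Traf1. Of all genes 8.88% were higher and 8.33% lower, so the counts are near the background, and the list includes Six2. Gdnf, the ligand that draws the bud in, had a log2 ratio of 1.29 and was in 17 of 29 against 7 of 20 cells. Osr1 was in 27 of 29 against 10 of 20 cells, though its log2 ratio was 0.79 (2.16 for the mean of log2 values). Eya1 (0.60) and Six2 itself (0.33) differed less. Foxd1, a gene of the stroma that was in 22 of 29 and 10 of 20 of these cells, had a log2 ratio of 1.33. Of 16 stroma markers 2 were higher, Foxd1 and Postn, and 1 lower, Lum.

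Of 10 listed induction genes, 1 was higher with Cited1 in the Six2 cells, Bmp2, and 3 were lower, Wnt4, Emx2 and Wfdc2, where 8.88% and 8.33% of all genes were. Wnt4 had a log2 ratio of -1.60 and was in 4 of 29 against 5 of 20 cells. Pax8, which comes before it, was in 12 of 29 and 7 of 20 cells with a log2 ratio of 0.47. Emx2 and Wfdc2 are also genes of the ureteric bud, and 9 of 11 bud markers were lower past the fold with Cited1.

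Partners of CITED1 and relatives of the members were read against the same shares of all genes, 8.88% higher and 8.33% lower. Of 6 listed partners in the table, none was past the fold in either direction with Cited1 in Six2 cells, a count too small to set against those shares. Cited2, the relative of Cited1 in the table, was in 57 of 86 cells, and its log2 ratio was 0.86 with Cited1 and 1.25 in Six2 cells over others. The co-activators Crebbp (-0.23) and Ep300 (0.41) and the signal mediator Smad4 (0.26) had smaller ratios with Cited1. Of 7 relatives of the members 1, Spock3 (2.02), was higher, a gene found in 2 of 29 and 1 of 20 of these cells.

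A further deposited table holds 450 genes in 35 of the 49 Six2 cells, of which 22 had Cited1 by the limit used here and 13 did not. Meox2, Uncx and Fam132a are not among its genes. The authors' deposited table gives Tmem100 the fifth largest fold by size, 14.2, as higher in cells its header calls six2only than in those it calls six2andcited1. In the authors' deposited table Meox1 (-4.28), Spock2 (-3.85) and Crym (-2.16) are lower there. The ratios above have the same sign for Tmem100, Spock2 and Crym, while that of Meox1 had no steady sign. These ratios use some of the same cells and are not separate evidence. The RPKM in this table orders the 35 cells nearly as the first one does, with a rho from 0.990 (Crym) to 0.999 (Tmem100) over the members listed. Its scale differs, with a median of 1.29 times the first table for Cited1 and 0.721 times for Crym.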

How the data were processed

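Values were used as deposited by the authors. The main table gives RPKM (reads divided by gene length and mapped reads) for 12360 genes in 86 cells, and per the file headers it counts cells above an RPKM of 3, at least 3 for each listed gene. The submitters' processing notes name TopHat 1.4.1, DESeq and mm9 but not what each was used for. A smaller table by the authors, per the file headers, holds RPKM for 450 genes in 35 cells and a signed fold, read here as a score. Read totals are unknown: taken as whole reads, the lowest values would need implausibly deep libraries in 84 of 86 cells, so reads were not recovered.

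Computed here were detection at an RPKM of 1, log2 ratios of (mean RPKM + 1), Spearman correlations and exact intervals, which cover counting error only, with Python 3.11.15, numpy 2.4.6, pandas 2.3.3, scipy 1.17.1 and matplotlib 3.10.9. The calculation of the ratio was checked on shuffled data with known folds put in, using well-expressed genes only. That checks the arithmetic and not how the measure performs for the members. Cells came from 1 pool, so there was no test, and no doublet caller was run. Members and gene lists were chosen with earlier results of these data known. Named genes were the members, 8 fixed lineage genes, the closest genes by correlation, and members of fixed lists. Alternatives were other detection limits, a pseudocount of 0.1, means of log2 values, and leaving out cells.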

Additional observations from a re-analysis of the deposited data

How the results depend on the processing

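Direction held best for the Six2 comparison: all 8 members stayed above 0 in all 7 alternatives, with between 4 and 7 of them past the fold. Members higher past the fold with Cited1 in Six2 cells, 0 as reported, numbered 2 with detection at an RPKM of 5 and 2 without Six2 cells that detect Wnt4 or Lhx1. They numbered 1 with a pseudocount of 0.1, 1 by mean log2 values, 1 without cells of few genes and 1 without the highest cell of each group. Fam132a turned to 0.16 with detection at 0.1. The 2 members lower with Cited1 became 0 at that limit, and 1 with the mean of log2 values, without cells of few genes or without the highest cells. Members lower in Wnt4 or Lhx1 cells, 2 as reported, numbered 1 with detection at an RPKM of 0.1 and 4 by mean log2 values. Members found in at least 50% of cells, 4 as reported, numbered 8 at an RPKM of 0.1 and 1 at an RPKM of 5. The share of all genes past the fold with Cited1 was 2.50% higher and 2.45% lower by mean log2 values. A pseudocount of 0.1 gave 14.8% and 12.8%. Leaving out the highest cell of each group, or the Six2 cells that detect Wnt4 or Lhx1, was chosen after seeing the data. Of 192 recomputed values of single members, 172 stayed close to the reported ones (within 1.5 times, or within the exact interval of a share). The cause of these changes was not tested. No paired analysis was possible because all cells come from 1 pool and form 1 group. Reads per cell are unknown, so an undetected gene cannot be told apart from one missed.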

Other observations

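The 6 cells with Cited1 and no Six2 were unlike each other. Six2 was listed at 0 in all 6. Cell 80 detected all 8 members, with Cited1 at 123 RPKM, Crym at 414.5, Spock2 at 31.5 and Fam132a at 231.6, together with Pax8 at 172.6 and Lhx1 at 24.0. Cell 68 had Cited1 at 71.7 and Crym at 427.9 RPKM, with Eya1 at 72.6 and Osr1 at 40.9. Cell 32 had Cited1 at 17.8 RPKM beside Tmem100 at 131.7, Fam132a at 279 and Pax8 at 344.1. Cells 2, 24 and 59 had Cited1 at 4.37, 9.78 and 1.18 RPKM, Crym at no more than 2.22 and Foxd1 at 18.6, 16.4 and 5.55 RPKM. Cell 24 also held the highest Meox1 of all 86 cells, 133 RPKM, with Gdnf at 108.7.

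The number of members per cell was higher in Six2 cells than in cells with neither gene, without a sharp border. Among the 7 members other than Cited1, Six2 cells with Cited1 detected between 4 and 7 (median 5). Six2 cells without it detected between 3 and 6, with the same median of 5. Cells with Cited1 alone detected between 0 and 7 (median 3), and cells with neither gene between 0 and 6 (median 2). All 8 members together were found in 5 cells, 4 with Six2 and Cited1 and 1 with Cited1 alone, and 3 cells, all with neither gene, had no member.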
